A study of Danio rerio with 14 samples.

Results

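The fungicide boscalid and its metabolite M510F01 were compared with each other in zebrafish larvae by RNA sequencing. The comparison used the 4 boscalid and 4 M510F01 libraries that have columns in the deposited tables, 8 of the 14 samples in the labels. The 4 libraries of the solvent control, dimethyl sulfoxide (DMSO), entered the same fit, so that 12 libraries shared 1 rescaling and 1 estimate of spread. For each compound the labels list 1 more sample, which was not analysed here. Only this 1 pair of compounds could be compared, at 1 concentration and 1 age.

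All animals were of the AB wild-type strain and were whole larvae at 96 hours post fertilization (hpf). Boscalid larvae had received boscalid at 0.03 µg/L from 3 hpf with daily renewal, and M510F01 larvae had received M510F01 at the same concentration over the same period. Control larvae had received DMSO at 0.01% by volume. The labels do not say whether the libraries of a group came from separate clutches, tanks or pools, so a p-value measures the spread between these samples, which may be technical. Between 12893093 and 17060350 reads per library were assigned to genes. Marker genes of muscle, lens, liver, exocrine pancreas, intestine, heart, photoreceptors, neurons, epidermis and red blood cells were all detected in every library. The lowest marker value in any library was 59.8 normalized counts, for the atrial peptide gene nppa.

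The aryl hydrocarbon receptor (AhR) is a transcription factor that is activated by small planar molecules. With its partner Arnt it binds DNA and raises the transcription of cytochrome P450 family 1 genes, whose enzymes oxidize many such molecules, and of the AhR repressor genes, which limit the response. In zebrafish Ahr2 is the receptor that mediates most responses to dioxin-like compounds. Boscalid acts on fungi by inhibiting succinate dehydrogenase, which is respiratory complex II and also an enzyme of the tricarboxylic acid cycle.

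At this concentration 3 genes passed the threshold in the limma fit between larvae given the parent compound and larvae given its metabolite. All 3 were higher with M510F01 than with boscalid. They were FP017215.1, the long non-coding RNA known in zebrafish as slincR, the cytochrome P450 gene cyp1b1, and the protein-coding gene zgc:165423. Of 36351 genes in the tables, 23131 had a mean of at least 10 normalized counts over the 12 libraries and were tested with limma, and the 3 calls are 0.0130% of them. No gene was lower with M510F01 past the threshold of 0.05 on the Benjamini-Hochberg adjusted p. On recovered reads edgeR called the same 3 genes, and DESeq2 called 20 (0.0865%), 19 of them higher (0.0821%) and 1 lower (0.00432%) with M510F01. An unadjusted limma p under 0.05 was found for 1063 genes (4.60%), 508 of them higher and 555 lower with M510F01.

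Over all genes tested the difference M510F01 minus boscalid had a median of 0.0033 on the log2 scale, and 50.7% of genes lay above 0. For 21138 genes (91.4%) the 95% interval of the difference lay inside 2-fold in both directions, and for 14584 genes (63.0%) inside 1.5-fold. The observed difference exceeded 2-fold in 112 genes (0.484%). All 4 M510F01 libraries stood above all 4 boscalid libraries in 246 genes (1.06%) and below them in 321 (1.39%), 567 in all (2.45%).

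**Figure D1:**
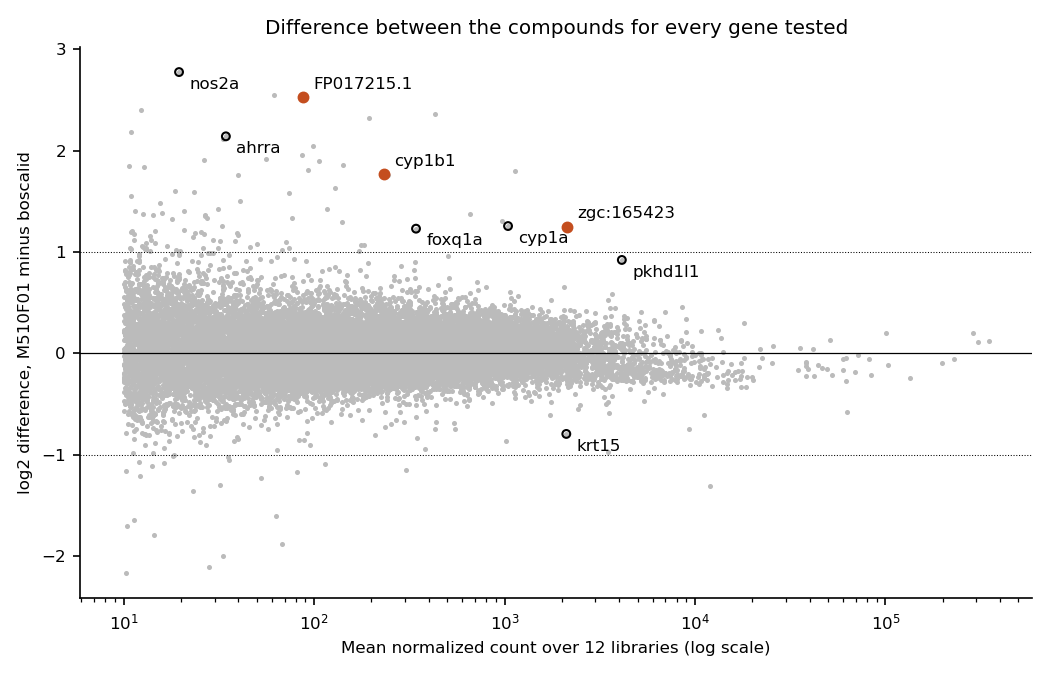
Each grey point is 1 gene tested, with its mean normalized count over the 12 libraries (log scale) on the horizontal axis and its log2 difference, M510F01 minus boscalid, on the vertical axis. Orange points mark FP017215.1, cyp1b1 and zgc:165423, which passed the threshold, open circles mark other genes described in the text, and dotted lines mark a 2-fold difference.

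The libraries were not equal in their influence. The first component of the deviations from the group means held 37.9% of the variance within groups, and in each group the libraries numbered 1 and 2 were negative on it and those numbered 3 and 4 positive. The labels do not say what the numbers stand for, and the main fit did not take them as pairs. With a term for each replicate number, limma called 8 genes, and 3262 had an unadjusted p under 0.05. Boscalid library 1 stood lowest on this component at -0.53, and boscalid library 4 highest at 0.42. The count of genes with an unadjusted p under 0.05 was 3462 without boscalid library 1, 1890 without M510F01 library 4, 679 without M510F01 library 2 and 628 without boscalid library 3.

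Both of the first 2 called genes belong to the known targets of the AhR. FP017215.1 (LL0000010677) is annotated by RefSeq as a long non-coding RNA next to sox9b, and in zebrafish slincR is induced by AhR ligands. Its normalized counts were 86.9, 139, 126 and 106 in M510F01 libraries 1 to 4 and 11.3, 25.4, 18.1 and 23.4 in boscalid libraries 1 to 4. In the DMSO libraries they were 117, 113, 163 and 121. Every M510F01 library stood above every boscalid library, with 2 inside the range of DMSO and 2 below it. The difference M510F01 minus boscalid was 2.53 (log2; SE 0.23) with a 95% interval of 2.02 to 3.03 and a limma adjusted p of 0.0011. Against DMSO, M510F01 stood at -0.17 (interval -0.67 to 0.33) and boscalid at -2.70 (interval -3.20 to -2.20). In these bulk samples of whole larvae, fewer cells of a type and less RNA per cell cannot be told apart. The strand setting of the counting is not given in the sources used here, so reads of overlapping genes on opposite strands may be shared.

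Cyp1b1 (LL0000008548) encodes an AhR-induced monooxygenase that is active on steroids, retinoids and polycyclic aromatic compounds. It stood at 233, 202, 213 and 386 normalized counts with M510F01, at 72.0, 60.3, 85.6 and 74.3 with boscalid and at 322, 364, 438 and 327 with DMSO. The compound groups did not overlap, and 3 of the 4 M510F01 libraries lay below all DMSO libraries. The difference M510F01 minus boscalid was 1.77 (log2; SE 0.19) with an interval of 1.36 to 2.18 and a limma adjusted p of 0.0032. Against DMSO, cyp1b1 stood at -0.53 with M510F01 (interval -0.93 to -0.12), which did not pass after adjustment (limma adjusted p = 0.9999), and at -2.29 with boscalid (interval -2.70 to -1.89). FP017215.1 and cyp1b1 remained called when any 1 of the 12 libraries was left out.

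The third call, zgc:165423 (LL0000038882), is a protein-coding gene for which the files and RefSeq give no named role. Its normalized counts were 2336, 2836, 3059 and 2386 with M510F01, 729, 1174, 1268 and 1385 with boscalid and 2555, 2459, 2983 and 2341 with DMSO. The M510F01 libraries covered nearly the same range as DMSO, and all boscalid libraries lay below both. The difference M510F01 minus boscalid was 1.25 (SE 0.17, interval 0.88 to 1.63, limma adjusted p = 0.044). This call was close to the threshold. It was lost in 10 of the 12 fits that left out 1 library, and held without boscalid library 1 and without boscalid library 4, with adjusted p between 0.0086 and 0.30 over the 12 fits.

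**Figure D2:**
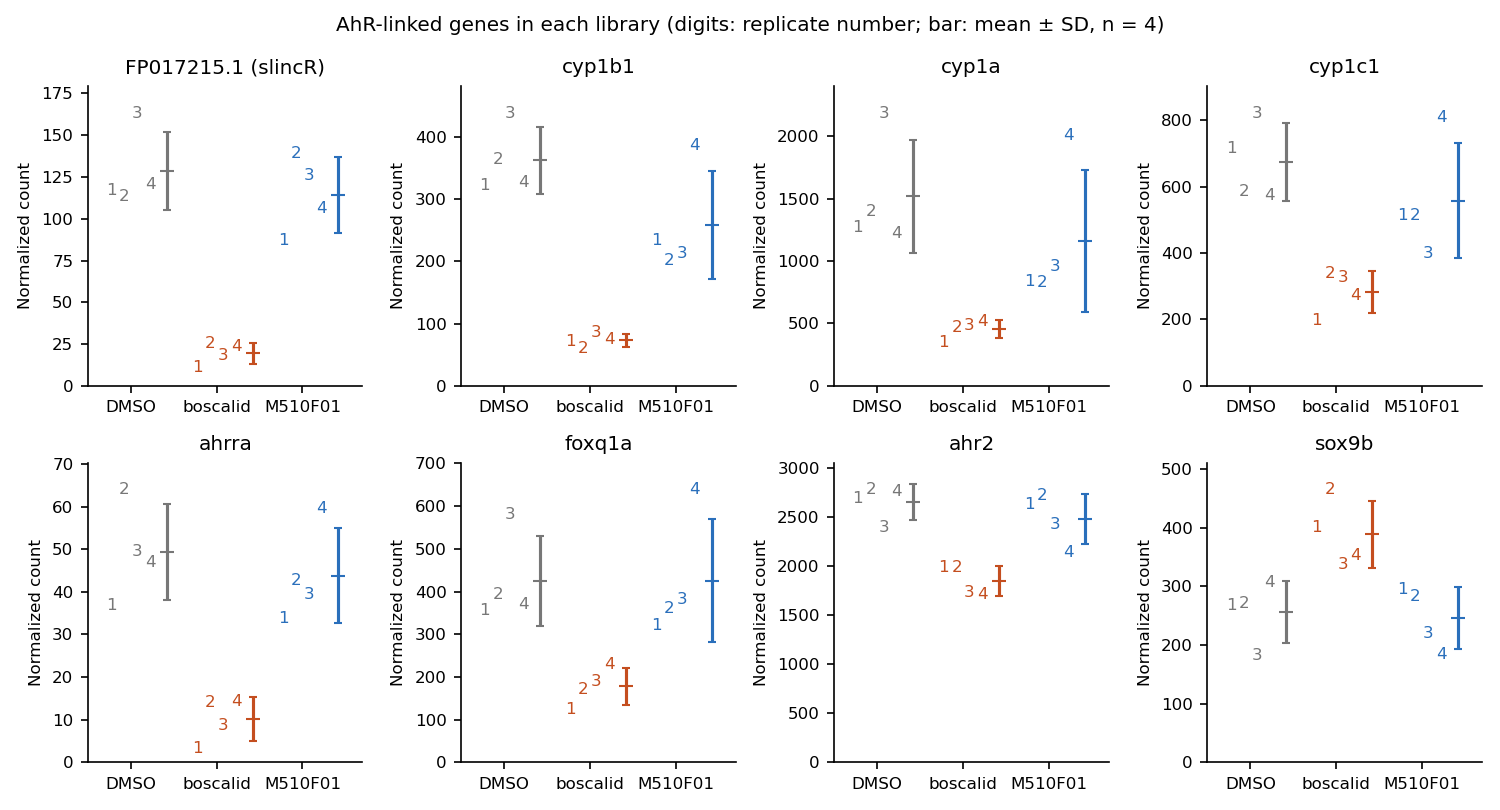
Normalized counts of 8 genes linked to the AhR are shown for each library of DMSO (grey), boscalid (orange) and M510F01 (blue), with digits for the replicate number and bars for mean ± SD (n = 4), on linear axes from 0. FP017215.1, cyp1b1, cyp1a, cyp1c1, ahrra, foxq1a and ahr2 stood lower with boscalid than with M510F01 in every library and sox9b stood higher, and M510F01 library 4 was the highest of its group for cyp1a, cyp1b1, cyp1c1, ahrra and foxq1a.

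The AhR battery, a list of 14 genes linked to the receptor, showed the same side for most members. The list includes cyp1d1, which in zebrafish is not induced by dioxin-like compounds. Of the 13 members tested, 2 were called, both higher with M510F01 (0.0130% over all genes). The difference M510F01 minus boscalid was above 0 for 11 and below 0 for cyp1d1 and sox9b. The groups did not overlap for 7 members higher and 1 lower with M510F01, beside 1.06% and 1.39% over all genes. The median difference of the list was 0.83 on the log2 scale, against 0.0033 over all genes. It lay between 0.61 (without boscalid library 4) and 0.93 (without boscalid library 3) when 1 compound library was left out. The median of the members against DMSO was -0.88 with boscalid and -0.17 with M510F01, from the same control libraries. The member not tested, wfikkn1, reached at most 4.27 normalized counts in any library.

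Among the cytochrome P450 family 1 genes, cyp1a (LL0000008547), the enzyme gene most used as a marker of AhR activation, did not pass. Its libraries held 836, 829, 959 and 2005 normalized counts with M510F01, at 348, 467, 485 and 516 with boscalid and at 1272, 1394, 2183 and 1217 with DMSO. The compound groups did not overlap, and M510F01 library 4 stood apart from the other three. The difference was 1.26 (SE 0.26, interval 0.69 to 1.82, limma adjusted p = 0.62) and 0.96 without that library, while DESeq2 called the gene.

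Cyp1c1 (LL0000008549), whose enzyme shares substrates with the other members of the family, stood at 512, 514, 399 and 807 with M510F01 and at 197, 338, 325 and 272 with boscalid. Its groups did not overlap and its interval was 0.50 to 1.42, around a difference of 0.96 (limma adjusted p = 0.73), and DESeq2 called it (adjusted p = 0.026). Its neighbouring copy cyp1c2 had a difference of 0.13 with an interval of -0.14 to 0.40. Reads that fit both copies may have been lost or split. For cyp1c2 both compounds stood below DMSO, boscalid at -0.60 (interval -0.87 to -0.33) and M510F01 at -0.47 (interval -0.74 to -0.20), and neither passed after adjustment. For cyp1d1, which in zebrafish is not induced by dioxin-like compounds, the difference was -0.07 with an interval of -0.26 to 0.11. The interval of cyp1d1 was the narrowest of the family and lay inside 1.5-fold.

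The receptor gene ahr2 (LL0000000498) stood at 2632, 2716, 2423 and 2143 normalized counts with M510F01, at 1988, 1983, 1727 and 1714 with boscalid and at 2685, 2779, 2392 and 2764 with DMSO. Its compound groups did not overlap. The difference was 0.42 (interval 0.20 to 0.64), which did not pass in limma (adjusted p = 0.84) and was called by DESeq2 (adjusted p = 0.049). Of the 11 receptors and partners, ahr2 was the only one whose groups did not overlap, beside 1.06% over all genes. The list had a median of 0.11, with 6 members above 0 and 5 below, and 11 of 11 intervals lay inside 2-fold. The partner gene arnt2 stood at 0.14 (interval -0.10 to 0.38) and the chaperone gene aip at -0.20 (interval -0.47 to 0.07).

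Of the repressors, ahrra (LL0000000499) stood at 33.7, 42.6, 39.4 and 59.5 normalized counts with M510F01 and at 3.38, 14.1, 8.64 and 14.3 with boscalid. In DMSO it stood at 36.7, 63.9, 49.4 and 47.0. No M510F01 library overlapped boscalid, and boscalid library 1 held the lowest value. The difference was 2.14 (SE 0.35, interval 1.39 to 2.90, limma adjusted p = 0.15), and DESeq2 called it. Its paralogue ahrrb stood at 0.83 (interval 0.32 to 1.34) at 28.2 ± 5.86 normalized counts with M510F01 and 15.7 ± 4.47 with boscalid (SD, n = 4). The ADP-ribosyltransferase gene tiparp, which in mammals represses the AhR, stood at 0.30 (interval -0.01 to 0.61).

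Foxq1a (LL0000010627), a forkhead transcription factor gene that AhR ligands induce in zebrafish, stood at 321, 360, 382 and 638 normalized counts with M510F01 and at 125, 171, 188 and 228 with boscalid. The groups did not overlap. The difference was 1.23 (interval 0.74 to 1.73). It did not pass in limma (adjusted p = 0.32), and was called by DESeq2 (adjusted p = 0.000929) and in limma with a term that set replicates 1 and 2 against 3 and 4. Its paralogue foxq1b stood at 0.35 (interval -0.06 to 0.76) and the quinone reductase gene nqo1 at 0.14 (interval -0.20 to 0.49), both given to complete the list. Sox9b (LL0000029204), a cartilage transcription factor gene that is repressed in zebrafish by dioxin through the AhR, stood at 295, 283, 220 and 183 with M510F01, at 401, 464, 337 and 352 with boscalid and at 267, 271, 182 and 306 with DMSO. Boscalid libraries stood above all others. The difference was -0.68 (interval -1.07 to -0.28, limma adjusted p = 0.84), opposite in sign to that of its neighbour FP017215.1.

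Outside the AhR battery and after zgc:165423, pkhd1l1 (LL0000022022) had the smallest p of the named genes with higher values with M510F01. In mouse its protein belongs to the coat of hair cell stereocilia. Its normalized counts were 4369, 5002, 5798 and 4241 with M510F01, 2304, 3072, 2067 and 2844 with boscalid and 4846, 4396, 5102 and 5519 with DMSO. The compound groups did not overlap, and M510F01 covered the range of DMSO. The difference was 0.92 (interval 0.61 to 1.23, limma adjusted p = 0.10), and DESeq2 called the gene. Limma also called it with array quality weights and with a term that set replicates 1 and 2 against 3 and 4. RefSeq places a second copy of the gene beside it, so reads may be shared between them.

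Of the genes by the same rule, fgf7, a growth factor ligand for epithelial receptors, stood at 0.93 (interval 0.53 to 1.34), and mamdc2b, a gene for an extracellular MAM-domain protein, at 0.96 (interval 0.53 to 1.39). Plin6, which encodes a fish perilipin of pigment droplets in xanthophores, stood at 0.91 (interval 0.46 to 1.36), and atp10b, a lipid flippase gene, at 0.59 (interval 0.29 to 0.89). In fgf7, plin6 and atp10b the value with M510F01 lay within 0.10 of DMSO on the log2 scale and that with boscalid between -0.99 and -0.69. None of these 4 genes passed in limma, and DESeq2 called fgf7 and mamdc2b. Bco1l, a carotenoid-cleaving oxygenase gene, differed from this pattern. It stood at 292, 388, 361 and 365 normalized counts with M510F01, at 233, 237, 243 and 241 with boscalid and at 223, 261, 312 and 284 with DMSO. Here boscalid overlapped DMSO, and 3 of the 4 M510F01 libraries stood above every other library. Its difference was 0.55 (interval 0.30 to 0.80, limma adjusted p = 0.62), with 0.38 for M510F01 and -0.17 for boscalid against DMSO, and DESeq2 called it (adjusted p = 0.022).

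DESeq2 also called 3 loci and 2 genes named after clones, for which no role is given. CR926130.1 stood at 1.38 (interval 0.85 to 1.90), LOC100331080 at 1.86 (interval 1.12 to 2.60), CABZ01079804.1 at 2.12 (interval 1.02 to 3.22), LOC100333218 at 1.92 (interval 0.96 to 2.88) and LOC101882112 at 1.58 (interval 0.81 to 2.35). None of them passed in the main limma fit. Limma with array quality weights called CR926130.1 and LOC100331080, and limma with a term for each replicate number called LOC100333218. CABZ01079804.1, LOC100333218 and LOC101882112 lie outside the naming rule, and their values were known when they were chosen.

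Among the named genes with lower values with M510F01, the keratin gene krt15 (LL0000013458) had the smallest p. It stood at 1687, 1932, 1626 and 1926 normalized counts with M510F01, at 2879, 3137, 3220 and 3172 with boscalid and at 1406, 1388, 1964 and 986 with DMSO. Boscalid libraries stood above all others, and M510F01 overlapped DMSO. The difference was -0.79 (SE 0.16, interval -1.14 to -0.45, limma adjusted p = 0.54), and krt15 was the 1 gene that DESeq2 called lower with M510F01. The epidermal annexin gene anxa1c stood at -0.81 (interval -1.23 to -0.38) and the keratin gene cyt1l at -0.97 (interval -1.55 to -0.39). For cyt1l the groups did not overlap, with 1373, 2644, 3307 and 3246 with M510F01 and 3519, 5354, 4772 and 6408 with boscalid. The whole list of epidermis and mucus genes did not share this side. Of its 34 members 22 lay below 0 and 12 above, the median was -0.06, and abca12, a lipid transporter gene of the skin barrier, stood at 0.41 (interval 0.13 to 0.70).

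The chaperone gene hsp90b1 of the endoplasmic reticulum was different in its relation to DMSO. It stood at 1690, 1952, 1859 and 2173 normalized counts with M510F01, at 2352, 3198, 2694 and 3036 with boscalid and at 1907, 2575, 2499 and 3154 with DMSO. Boscalid stood above M510F01 in every library, and DMSO covered most of the range of both. The difference was -0.55 (interval -0.87 to -0.23), with -0.38 for M510F01 and 0.17 for boscalid against DMSO. Other genes named for a small p and lower values with M510F01 were gstm.3, a glutathione transferase gene, at -0.55 (interval -0.84 to -0.27), the cardiac actin gene actc1a at -0.41 (interval -0.63 to -0.19), the carbonic anhydrase gene ca15a of ionocytes at -0.66 (interval -1.03 to -0.30) and the ferritin gene fthl29 at -0.75 (interval -1.17 to -0.33). The glycosylation gene alg1 stood at -0.37 (interval -0.57 to -0.16) and the histone gene hist1h2a5 at -0.50 (interval -0.79 to -0.22). None of these, hsp90b1 included, passed in the joint limma fit or in edgeR or DESeq2. Limma with a term for each replicate number called hsp90b1.

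**Figure D3:**
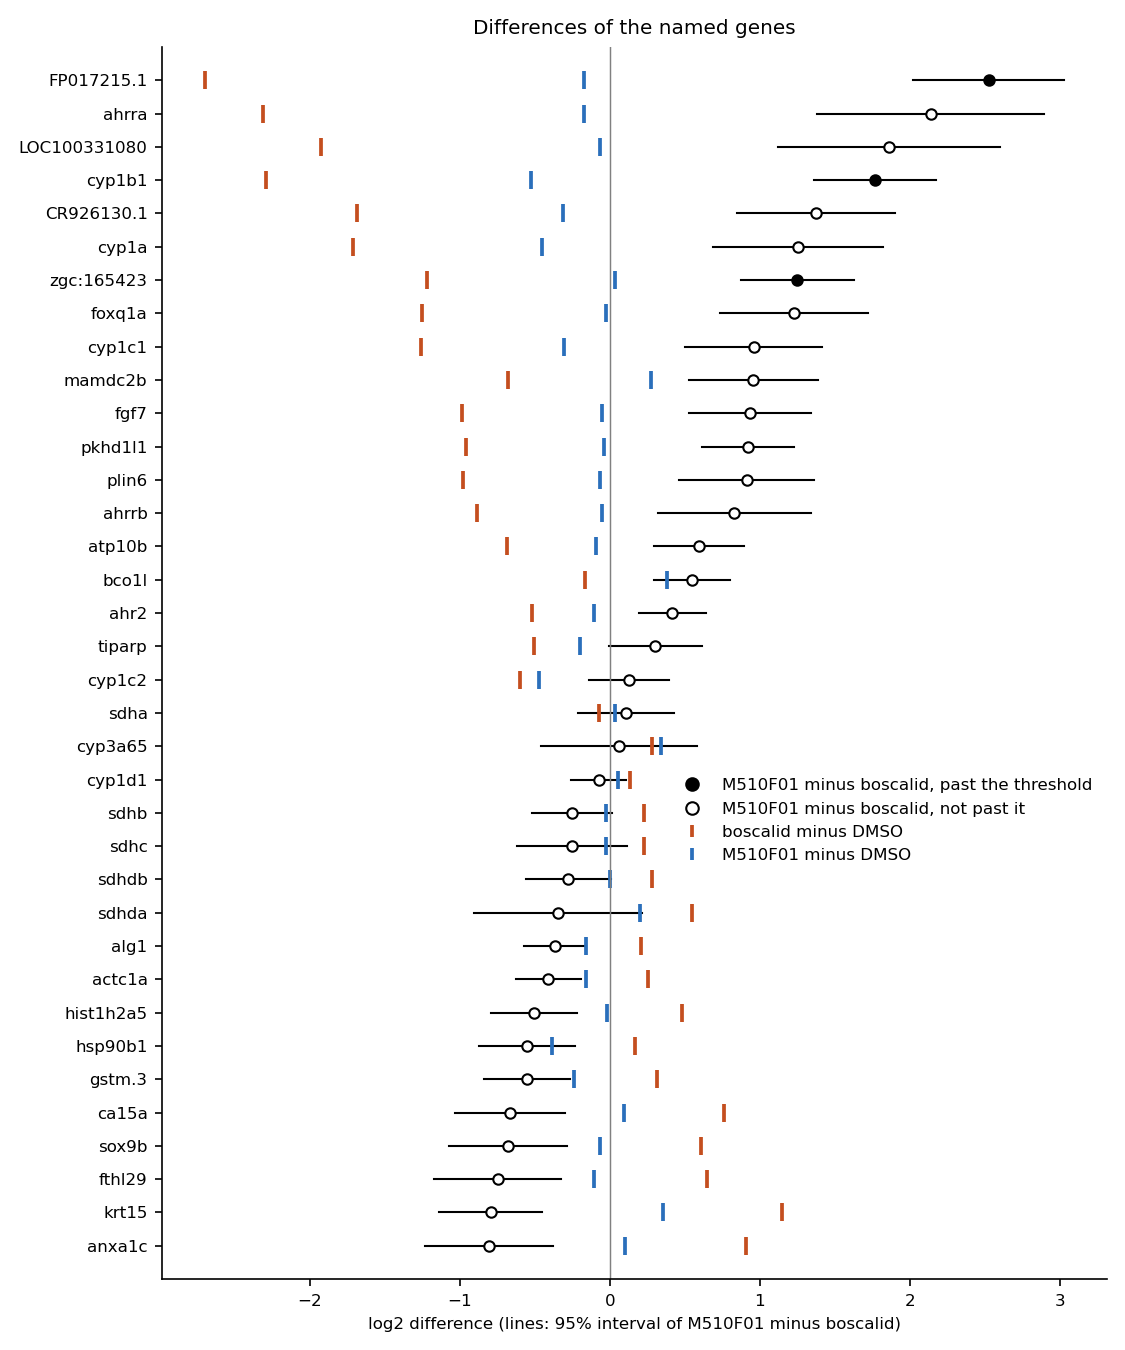
For each gene named for its p, for a call, or as one of the AhR-linked genes, cyp3a65 and the succinate dehydrogenase genes, a circle and line give the log2 difference M510F01 minus boscalid with its 95% interval (filled where the adjusted p was under 0.05), and ticks give boscalid minus DMSO (orange) and M510F01 minus DMSO (blue) from the same fit. For most genes the blue tick lies nearer to 0 than the orange one, and both are measured against the same 4 DMSO libraries. Many of these genes were chosen for their difference between the compounds, so they do not stand for all genes.

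In the joint fit 9 genes were called between boscalid and DMSO (0.0389%), where 2150 genes (9.29%) had an unadjusted p under 0.05, and limma called 0 genes between M510F01 and DMSO, where 840 (3.63%) did. The 2 sets of differences share the DMSO libraries, so the values are given side by side. The 9 genes were cyp1b1, FP017215.1, CABZ01030033.1, krt15, zgc:165423, CR926130.1, pkhd1l1, ahrra and cyp1a, and krt15 was the only one higher with boscalid. In 6 of them the interval of M510F01 minus DMSO spanned 0. In the other three it did not, with -0.53 for cyp1b1, 0.36 for krt15 (interval 0.01 to 0.70) and -0.71 for CABZ01030033.1 (interval -1.24 to -0.18). CABZ01030033.1, chosen with its values known, had 37.8, 45.6, 65.3 and 42.1 normalized counts with M510F01 and at 21.4, 17.0, 26.8 and 22.4 with boscalid, without overlap. In DMSO it stood at 59.6, 115, 56.3 and 89.7, above all boscalid libraries. In the authors' deposited table for M510F01 the log2 fold change against DMSO was -0.49 for cyp1b1 with an adjusted p of 0.999, and in the authors' deposited table for boscalid it was -2.31. The authors' DESeq2 result for boscalid also had adjusted p under 0.05 for genes outside these 9. Among them were cyp1c1 (DESeq2 adjusted p = 1.1e-06), foxq1a (3.1e-05) and ahr2 (0.0011), so the count of 9 holds for the joint limma fit only. The 9 genes themselves also passed in the authors' result, where krt15 had the largest DESeq2 adjusted p among them at 1.0e-05.

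The genes of the fungicide's own target gave small differences with intervals that bound them. Sdha, the flavoprotein subunit gene of succinate dehydrogenase, stood at 0.11 (interval -0.21 to 0.43) and sdhb, the iron-sulfur subunit gene, at -0.25 (interval -0.52 to 0.02). The membrane anchor genes sdhc and sdhdb stood at -0.25 (interval -0.62 to 0.11) and -0.28 (interval -0.56 to 0.01). Sdhda, the second anchor copy, stood at -0.35 (interval -0.90 to 0.21) with between 7.10 and 16.0 normalized counts over all libraries, near the filter. None was called, and all 9 members of the complex II list, which includes its assembly factors, had an interval inside 2-fold. That list had a median of -0.24, with 7 of 9 members below 0, close to the medians of the other respiratory complexes given next.

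The nuclear genes of the other respiratory complexes and of the cytosolic ribosome shared a sign without any call. Of complex I, 38 of 38 members tested lay below 0, with a median of -0.22. Of complexes III and IV, 27 of 28 did, with a median of -0.22, and of the ATP synthase 17 of 17, with a median of -0.24. All 76 ribosomal protein genes tested lay below 0, with a median of -0.22, where 49.3% of all genes did. Groups overlapped for all ribosomal protein and all complex I genes, and no ribosomal protein gene had an unadjusted p under 0.05. In complexes III and IV and in the ATP synthase, 1 member each had all M510F01 libraries below boscalid, beside 1.39% over all genes. An unadjusted limma p under 0.05 was found for 1 member of complexes III and IV and for 2 of the ATP synthase, beside 4.60% over all genes. Members of such a list move together from library to library, so their count is not a count of independent differences. The range over members was narrow, -0.35 to -0.04 for the ribosomal proteins, and 76 of 76 intervals lay inside 2-fold.

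In each group the level of the ribosomal protein list was higher in the libraries numbered 3 and 4 than in those numbered 1 and 2. Relative to the mean of all 12 libraries it stood at -0.28, -0.20, 0.04 and 0.16 on the log2 scale in M510F01 libraries 1 to 4, at -0.29, 0.14, 0.34 and 0.37 with boscalid and at -0.44, -0.16, 0.27 and 0.03 with DMSO. The ranges of the 2 compounds overlapped over most of their width. The median difference was -0.35 without boscalid library 1 and -0.14 without boscalid library 4. The part of the libraries' spread in this difference was not tested. Against DMSO the list median stood at 0.21 with boscalid and at 0.00 with M510F01.

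Transcripts of the mitochondrial genome had different signs in different libraries. All 12 tested lay below 0, with a median of -0.08 and 12 of 12 intervals inside 1.5-fold. In replicates 1 and 2 alone the median was 0.24, and in replicates 3 and 4 alone it was -0.34. The pooled value joins 2 sets of libraries with opposite signs.

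**Figure D4:**
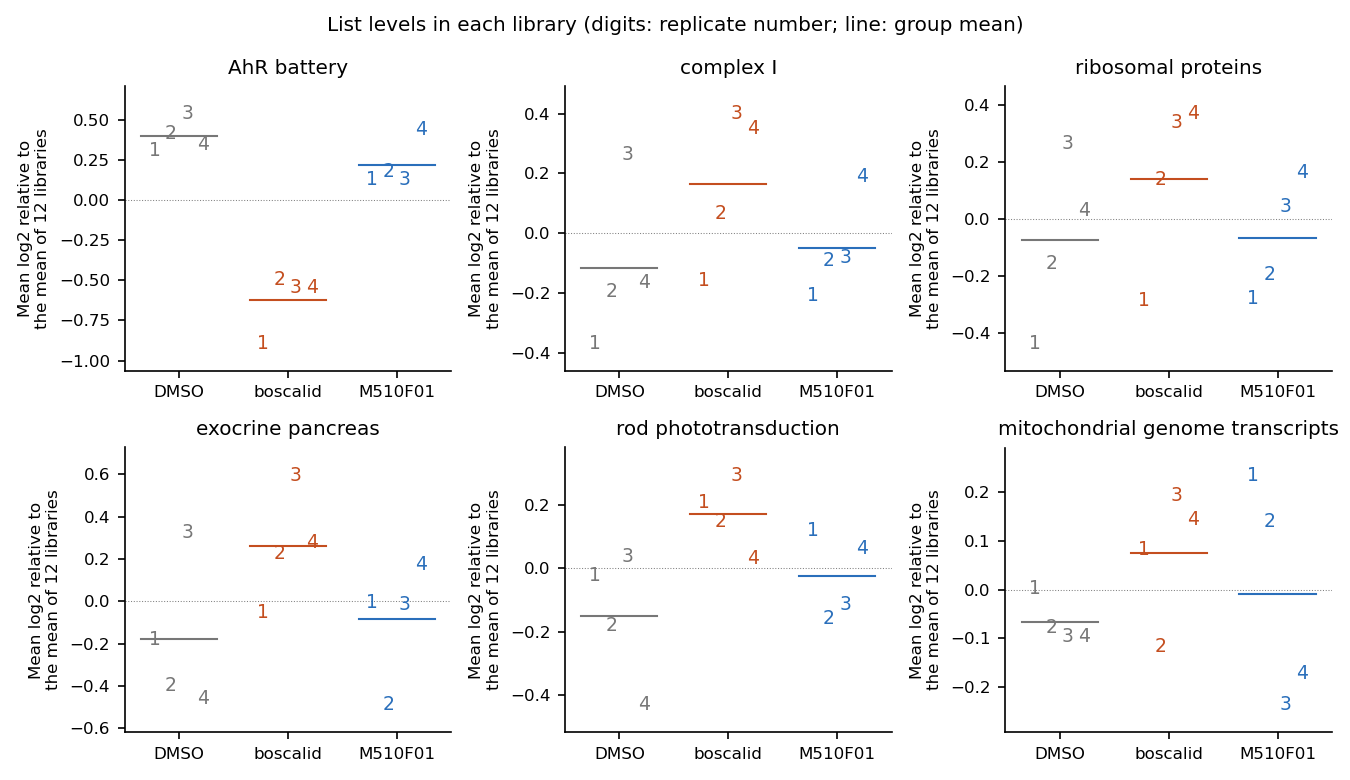
Each digit is a library's replicate number, placed at the mean log2 level of a list's members relative to the mean of all 12 libraries, for DMSO (grey), boscalid (orange) and M510F01 (blue), with a line at each group mean. The AhR battery separates boscalid from M510F01 in every library, whereas the other 5 lists shown overlap between the compounds and, for complex I and ribosomal proteins, stand higher in libraries 3 and 4 than in 1 and 2 of each group.

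Enzymes of central carbon metabolism had medians of -0.14 for the tricarboxylic acid cycle, with 25 of 30 members below 0, and of -0.13 for glycolysis, with 30 of 35 below 0. None was called. Pfkmb, a phosphofructokinase gene of muscle glycolysis, had the lowest difference of the glycolysis list at -0.68 (interval -1.08 to -0.27). It stood at 351, 345, 309 and 504 normalized counts with M510F01 and at 576, 520, 703 and 586 with boscalid, without overlap. The malate dehydrogenase gene mdh1ab stood at -0.44 (interval -0.75 to -0.12) and the isocitrate dehydrogenase gene idh3a at -0.26 (interval -0.47 to -0.04). The 29 hypoxia target genes had a median of 0.01, with 17 above 0.

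Among lists that mark tissues, the exocrine pancreas had the lowest median, at -0.33, and 23 of 23 digestive enzyme and related genes tested lay below 0. The elastase gene ela2 stood at -0.48 (interval -0.98 to 0.02). Its values overlapped, at 3588, 2287, 3115 and 4161 normalized counts with M510F01 and 3213, 4600, 5779 and 4681 with boscalid. Only 18 of the 23 intervals lay inside 2-fold, and no member was called. Rod phototransduction had a median of -0.24 with 21 of 24 members below 0, among them the rod kinase gene grk1a at -0.40 (interval -0.71 to -0.09) and the rod transducin gene gnat1 at -0.31 (interval -0.59 to -0.04). Cone phototransduction had a median of -0.17 with 20 of 24 below 0, and the lens crystallins one of -0.10 with 27 of 31 below 0.

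Skeletal muscle genes had a median of -0.14, with 39 of 45 below 0 and 45 of 45 intervals inside 2-fold, and genes of DNA replication and mitosis one of -0.14, with 43 of 54 below 0. Of these 54 replication and mitosis genes, 29 lay below 0 in replicates 1 and 2 alone and 48 in replicates 3 and 4 alone. Liver, neuron, intestine and myelin lists lay close to 0, with medians of 0.01, -0.01, -0.04 and -0.01. In the intestine list the medians of both compounds lay above DMSO, at 0.28 for boscalid and 0.30 for M510F01 from the shared controls. The list level in DMSO libraries 1 to 4 was -0.42, -0.25, 0.185 and -0.29. DMSO library 3 thus stood above every M510F01 library (at most 0.176) and inside the boscalid range of -0.14 to 0.28. Ionocyte genes had a median of 0.05, yet the chloride transport genes slc12a10.2 and clcn2c stood at -1.15 (interval -1.87 to -0.42) and -1.17 (interval -2.04 to -0.29). For slc12a10.2 the M510F01 libraries stood at 126, 184, 202 and 336 normalized counts, all below the boscalid libraries at 401, 379, 436 and 580, while DMSO reached from 146 to 475 and overlapped both.

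**Figure D5:**
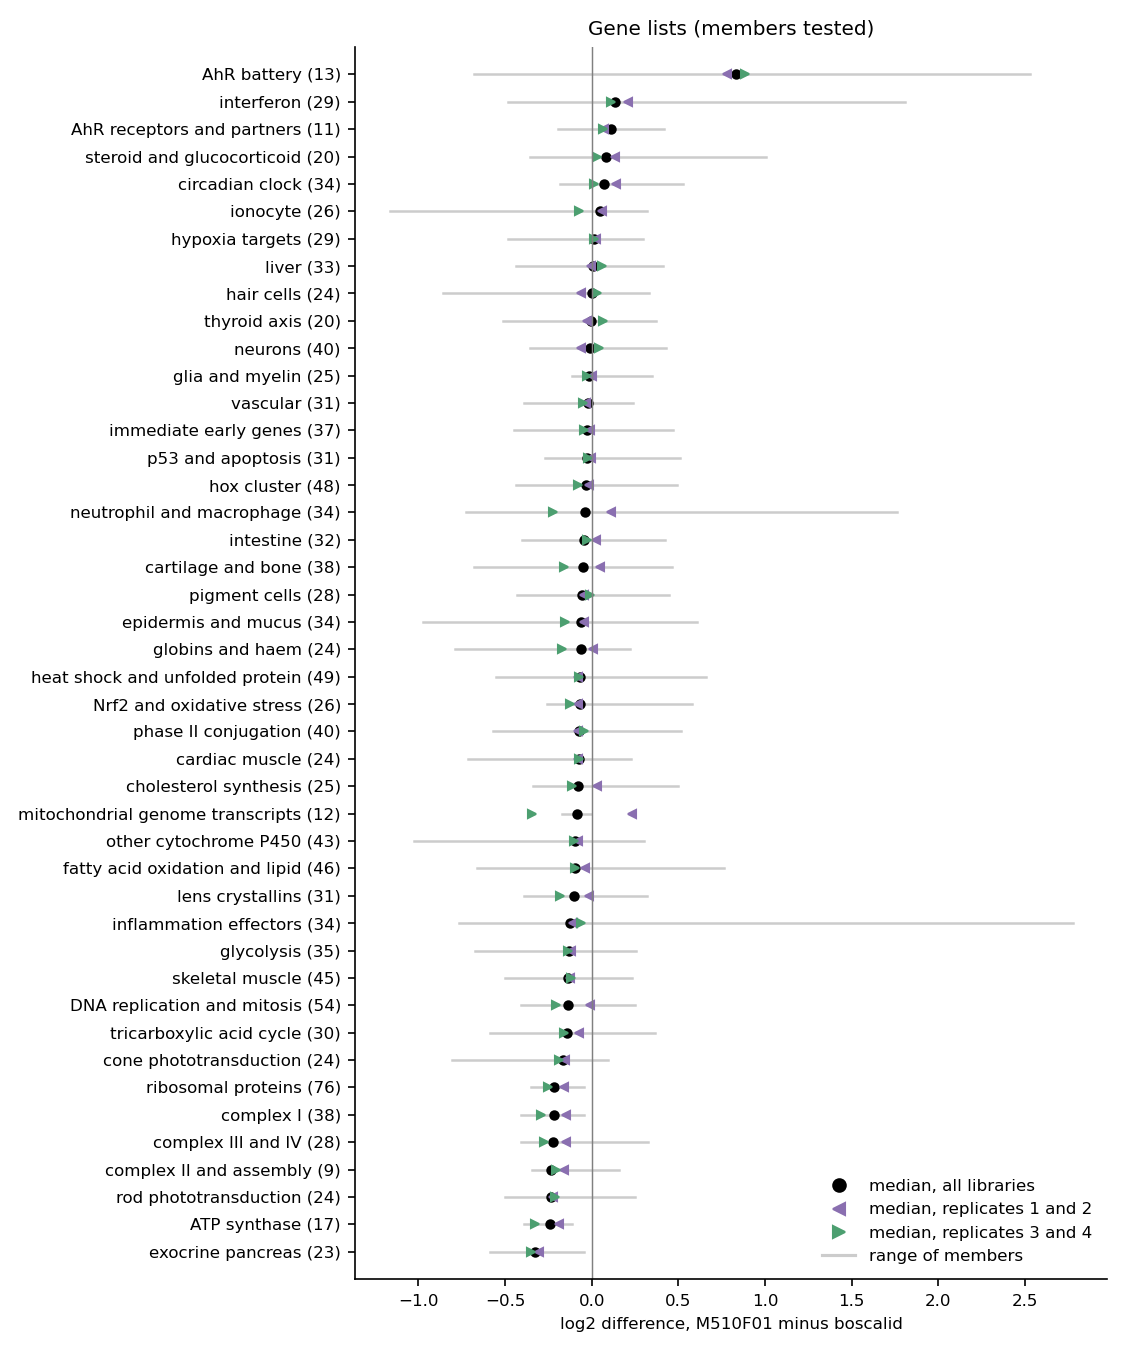
For each of the 44 gene lists, with the number of members tested in brackets, a black point gives the median log2 difference M510F01 minus boscalid, a grey line the range over members, and triangles the medians within replicates 1 and 2 and within replicates 3 and 4. The AhR battery lies apart at 0.83, and all other medians over all libraries lie between -0.33 and 0.14. The mitochondrial genome transcripts have opposite signs in the 2 sets of replicates, and so do several other lists. Among those are neutrophil and macrophage genes (0.113 and -0.225) and cartilage and bone genes (0.045 and -0.16).

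Among defence lists no member was called by limma. Interferon genes had a median of 0.14, with 23 of 29 above 0, and 13 of the 42 members were not tested. In replicates 3 and 4 alone 13 of the 29 lay below 0. The lowest member stood at -0.48. The compound groups did not overlap for 1 member, lower with M510F01, beside 1.39% over all genes. Stat1b, a transcription factor gene of interferon signalling, stood at 1.81 with a wide interval of 0.63 to 2.98, with libraries that spread from 35.7 to 151 normalized counts with M510F01 and from 6.75 to 54.6 with boscalid. The inflammation list had a median of -0.13. Its member nos2a, the inducible nitric oxide synthase gene, stood at 7.15, 30.4, 39.4 and 10.1 with M510F01 and at 0, 3.77, 2.59 and 2.04 with boscalid, without overlap, and at 13.9, 25.2, 20.8 and 79.0 with DMSO. Its difference was 2.78 (interval 1.4 to 4.15, limma adjusted p = 0.80), and DESeq2 called it (adjusted p = 0.027). The granulin gene grn2 stood at 1.76 (interval 0.81 to 2.71), was called by DESeq2 and overlapped between the groups. Against the shared controls, the median of the inflammation list was -0.34 with boscalid and -0.35 with M510F01, and that of the immediate early genes -0.22 with each. The inflammation level in DMSO libraries 1 to 4 was -0.0041, 0.42, 0.055 and 0.92 relative to all 12 libraries. Boscalid reached 0.12 and M510F01 0.078, so DMSO overlapped both, and DMSO library 4 stood highest. For the immediate early genes the lowest DMSO library stood at 0.057 and the highest compound library at -0.016.

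Other detoxification and stress lists gave medians near 0, at -0.10 for the other cytochrome P450 genes, -0.07 for phase II conjugation and -0.07 for heat shock and unfolded protein genes. Cyp3a65, a xenobiotic-metabolizing gene of liver and intestine, stood at 0.06 (interval -0.46 to 0.58). Ugt1b1, a glucuronosyltransferase gene, stood at 0.52 (interval 0.06 to 0.97), with 131, 161, 180 and 259 normalized counts with M510F01 and 117, 124, 130 and 122 with boscalid. Its groups did not overlap, although the lowest M510F01 library lay close to the highest boscalid library. Nfe2l2b, a paralogue of the oxidative stress regulator Nrf2, stood at 0.58 (interval 0.26 to 0.90), with 129, 139, 128 and 177 with M510F01, 85.5, 88.6, 105 and 101 with boscalid and 120, 139, 175 and 166 with DMSO. The compound groups did not overlap, while the list of 26 Nrf2 and oxidative stress genes as a whole had a median of -0.07, with 21 below 0. The circadian clock list had a median of 0.07, with 24 of 34 above 0. Its level relative to the mean of all 12 libraries was 0.12, 0.00076, 0.022 and -0.029 on the log2 scale in M510F01 libraries 1 to 4 and -0.069, -0.12, -0.051 and -0.097 in boscalid libraries 1 to 4. As for the AhR battery, the compounds did not overlap, and the gap between them was small beside that of the battery. How often such a gap arises by chance among 44 lists was not tested. The clock median was 0.14 in replicates 1 and 2 alone and 0.014 in replicates 3 and 4 alone, where 15 of the 34 members lay below 0.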

How the data were processed

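Total RNA of whole larvae was sequenced after removal of ribosomal RNA, with stranded libraries, per the labels. Read checks, trimming, alignment, counting and testing used FastQC, cutadapt, STAR, featureCounts and DESeq2 (versions not named), per the submitters' processing notes. The sources used here do not name the genome build, the annotation or the strand setting. The deposited signal values are normalized counts per gene and library, in 1 table per compound. Whole reads were recovered for 100% of these values within 0.01 reads. An automatic check could not be applied to boscalid library 4 and M510F01 library 2, where 1 read is worth close to 1. Both tables gave identical DMSO reads, and their deposited DMSO values differed by a ratio of 1.00296 to 1.00541. Each comparison with DMSO also came with log2 fold changes and SE, a test score, and raw and adjusted p-values, all deposited by the authors. Total reads per library ran from 12893093 to 17060350.

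Recovered reads were rescaled over all 12 libraries jointly, with median-of-ratios size factors. Genes with a mean of at least 10 were tested with limma 3.58.1 (trend and robust) in R 4.3.3, on log2 of the normalized count plus 1, a scale that understates differences of low genes. P-values were adjusted by Benjamini-Hochberg over all 23131 genes with a threshold of 0.05, and intervals are 95% intervals of that fit. Each adjusted p comes from limma unless edgeR 4.0.16 (quasi-likelihood) or DESeq2 1.42.0 is named. The test was also run on simulated counts, drawn with the same dispersion for every gene and no component shared between genes of a library. That run therefore does not cover the spread between libraries seen in these data. Python 3.11.15 with pandas 2.3.3 summarised the fits, and matplotlib 3.10.9 drew the figures.

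Members and lists were chosen with earlier results of these data known, so the lists are described by counts and medians without a test. Of 1474 entries in 44 lists 1442 matched a gene, some by an older name in RefSeq (assembly GRCz12tu), which served for names and neighbours only. Genes were named where they passed the threshold, where they had the 10 smallest p in each direction among genes that reach a mean of 50 and carry no placeholder symbol, where edgeR or DESeq2 called them (up to 10 per direction), from a set of AhR and succinate dehydrogenase genes, or as 1 of up to 4 members of a list with the smallest p. Alternatives covered the pseudocount, the filter, other rescalings, library weights, other tools, a replicate block, a term for replicate numbers, the 8 compound libraries alone and leaving out each library. Leaving out both boscalid library 1 and M510F01 library 4 was added after seeing the data.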

Additional observations from a re-analysis of the deposited data

Results flagged for a closer look

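The compounds differed past the threshold in 3 genes, M510F01 minus boscalid on the log2 scale, by 2.53 for FP017215.1, by 1.77 for cyp1b1 and by 1.25 for zgc:165423.

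Of 126 gene and group combinations, from 42 genes in 3 groups of 4 libraries, 7 held a library far from the others of its group. Chance alone would give about 1 in 20, and the 7 found are close to that share. The gap to the nearest library was compared with the whole range of the log2 values. In cyp1a, M510F01 library 4 was the highest with a gap of 0.835 of the range. In CR926130.1, boscalid library 3 was the lowest with a gap of 0.955. In ahrrb, boscalid library 4 was the lowest with a gap of 0.834. In sdhda, library 2 was the lowest both with DMSO, with a gap of 0.834, and with M510F01, with a gap of 0.862. In foxq1b and nqo1, DMSO library 3 was the highest, with gaps of 0.839 and 0.894.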

How the results depend on the processing

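FP017215.1 and cyp1b1 were called under all 27 alternatives, and zgc:165423 was lost with TMM, with upper-quartile rescaling, in the fit of the 8 compound libraries and in 10 of 12 fits without 1 library. Array quality weights added pkhd1l1, CR926130.1, ahrra and LOC100331080 higher with M510F01 and krt15 lower. The count of 3 calls became 8 with array quality weights, 20 with DESeq2, and 5 with a term that set replicates 1 and 2 against 3 and 4, and ran from 2 to 3 with 1 library left out. The count of genes with an unadjusted p under 0.05, 1063, became 3423 with array quality weights, 2655 with that term and 5186 without boscalid library 1 and M510F01 library 4, and ran from 628 to 3462 with 1 library left out. Genes without overlap, 246 higher with M510F01, numbered 152 with a mean of at least 50 and 3384 without those 2 libraries, and 244 to 1403 with 1 library left out. The 321 lower ones numbered 3370 without those 2 libraries and 321 to 1384 with 1 left out. Fewer libraries per group make such gaps more frequent, and the share of this in the rise was not tested. The 2 libraries left out together stood at -0.53 (boscalid library 1) and 0.33 (M510F01 library 4) on the first component within groups. The cause of the other shifts was not tested either.

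The same replicate number in boscalid and M510F01 gave correlations of deviations between 0.0061 and 0.51, and 3 of 4 pairs exceeded 0.1. The main fit did not take the numbers as pairs because the lowest correlation was under 0.1, which does not exclude pairing. Any spread shared by replicate number therefore stayed in the error of that fit. With a replicate block 8 genes were called, the 3 and ahrra, LOC100333218, foxq1a and 1 gene with a placeholder symbol higher with M510F01 and hsp90b1 lower (adjusted p = 0.045), and 3262 genes had an unadjusted p under 0.05. Of 8 libraries 5 correlated best with their own number, a hint from the data only.

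Cyp3a65, at 0.06, turned to -0.11 with array quality weights and to -0.073 without boscalid library 1 and M510F01 library 4. With 1 library left out it ran from -0.034 (without boscalid library 1) to 0.18, and was -0.024 without boscalid library 4. Without those 2 libraries fabp7b, a glial lipid-binding protein gene, turned from 0.21 to -0.021 and nqo1 from 0.14 to -0.04. Of 5431 values of named genes under the alternatives, 28 passed the threshold where the reported value did not, 13 no longer passed and 6 changed sign, and of 1188 list medians 14 moved by more than the spread between libraries. Low counts limit precision, and for sdhda, at 7.10 to 16.0 normalized counts, the interval ran from -0.90 to 0.21.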
